A study of Homo sapiens with 6 samples.

Results

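The BCL2 family genes described here are the 10 members BCL2, BCL2L1, MCL1, BCL2A1, BAX, BAK1, BID, BCL2L11, PMAIP1 and BBC3, taken by gene symbol from the 20667 symbols measured in each library. They were measured in U2932, a cell line established from a diffuse large B-cell lymphoma of the activated B-cell type (ABC-DLBCL), in 3 RNA-seq libraries of cells with a lentiviral shRNA against ROCK2 (ROCK2 KD) and 3 of cells with a lentiviral scrambled shRNA (Scr shRNA). Both groups were stable lines obtained by sorting for the fluorescent reporter of the vector and by puromycin, so the controls also carry an integrated vector and its resistance gene. ROCK2 was silenced with a single construct, so an effect of that construct and an effect of losing ROCK2 cannot be told apart. The libraries of each group are numbered 1 to 3, and the comparison asks which transcripts differ once the kinase is silenced. Nothing states that the 3 libraries of a group came from separate cultures, so the p values measure the spread between these libraries, which may be technical.

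The BCL2 family decides whether the outer membrane of the mitochondrion is breached, the step that releases cytochrome c and starts the caspase cascade. Its survival proteins BCL2, BCL-XL (encoded by BCL2L1), MCL1 and BFL-1 (encoded by BCL2A1) hold the pore-forming effectors BAX and BAK1 in check, and the BH3-only proteins, among them BID, BIM (encoded by BCL2L11), NOXA (PMAIP1) and PUMA (BBC3), relieve that restraint or activate the effectors. In B cells, BCL2A1 and BCL2L1 are known targets of NF-kB, a pathway that is constitutively active in ABC-DLBCL, and many of these lymphomas express BCL2 strongly.

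Of the 10 members, BCL2A1, BCL2 and BCL2L11 had a higher level in ROCK2 KD than in Scr shRNA in all 3 pairs of the same number, and BCL2A1 by the most, with a log2 fold change of 0.69. Of all genes tested, 13.1% were higher in all 3 pairs. Adjusted over all genes, 0 members passed the test, as did 0% of all genes. In bulk RNA, fewer cells that express a gene and less RNA of it per cell cannot be told apart. BCL2L1, MCL1, BAX, BAK1, BID, PMAIP1 and BBC3 went one way in some pairs and the other way in the rest. The values below are FPKM, fragments relative to transcript length and to all mapped fragments, which are corrected for transcript length and can be compared between genes. Differences were tested on log2(scaled FPKM + 1), where scaled means divided by a library factor that aligns the bulk of the genes, a scale on which differences of low genes come out too small. The test was limma with the replicate number as a block, adjusted by the Benjamini-Hochberg method over 10526 genes, those reaching 1 FPKM in 3 or more of the libraries. All 10 members passed this filter.

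Some facts of the libraries bear on every value. The FPKM summed to between 208289 and 480612 per library, with both libraries of replicate 1 lowest. Relative depth was estimated from the most common FPKM ratio to Scr shRNA replicate 3 among genes of very low FPKM. It was 71.4% to 100% of that library, the deepest by this measure. The estimate takes equal read numbers to be the most common case among such genes, which was not tested. The deposited values carry no read numbers, so no counting interval is given. ROCK2 was listed at 2.75, 5.35 and 1.26 FPKM in ROCK2 KD replicates 1, 2 and 3 and at 4.32, 7.21 and 5.78 in Scr shRNA. It was lower in ROCK2 KD in 3 of 3 pairs. After scaling, every ROCK2 KD library (3.50, 4.63 and 1.14) lay below every control (5.50, 6.21 and 5.30), while in deposited FPKM one ROCK2 KD library lay above the lowest control. The fit had a log2 fold change of -0.81 (SE 0.23, adjusted p = 0.801 by limma). Of 6 B cell markers, 5 had an FPKM of at least 1 in every library. The sum of the list was 447 to 1475 in ROCK2 KD and 316 to 1507 in Scr shRNA, with replicate 1 lowest in both groups. Of the 4 T cell markers measured and the 5 myeloid markers, 0 reached an FPKM of 1 in every library. CD2 and MPO were at 0 throughout. The T cell markers summed to 0.321 to 0.758 in ROCK2 KD and to 0.0902 to 0.279 in Scr shRNA, and the myeloid markers to 0.295 to 0.648 and 0.369 to 0.642. The part of these traces in the members' values was not tested. Of 5 epithelial and fibroblast markers, EPCAM alone did, at 2.59 to 5.00, and the list summed to 2.82 to 5.25 and 2.67 to 5.10.

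Among the members, the most abundant transcripts were MCL1 and PMAIP1, a survival gene and the BH3-only gene whose protein binds it. In Scr shRNA the mean scaled FPKM was 429.8 for PMAIP1 and 409 for MCL1, followed by BCL2 at 99.1, BAX at 75.9, BCL2A1 at 54.3, BCL2L1 at 28.8, BAK1 at 21.7, BCL2L11 at 15.7, BID at 15.0 and BBC3 at 3.75. Most neighbours in this order had overlapping ranges over the 3 control libraries. The ranges were apart only between MCL1 and BCL2, where MCL1 was 3.13 to 4.96 times as high in 6 of 6 libraries, and between BID and BBC3, where BID was the higher in 6 of 6. BCL2L1 also exceeded BAK1 in 6 of 6 libraries, although their ranges overlapped. PMAIP1 exceeded MCL1 in only 2 of 6 libraries, with ratios of 0.536 to 2.94. BAX exceeded BCL2A1 in 3 of 6, with ratios of 0.673 to 4.32. MCL1 ranked between 114 and 148 among all 20667 symbols in every library. BBC3, at ranks 6472 to 10236, was the one member near the filter on low values.

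**Figure D1:**
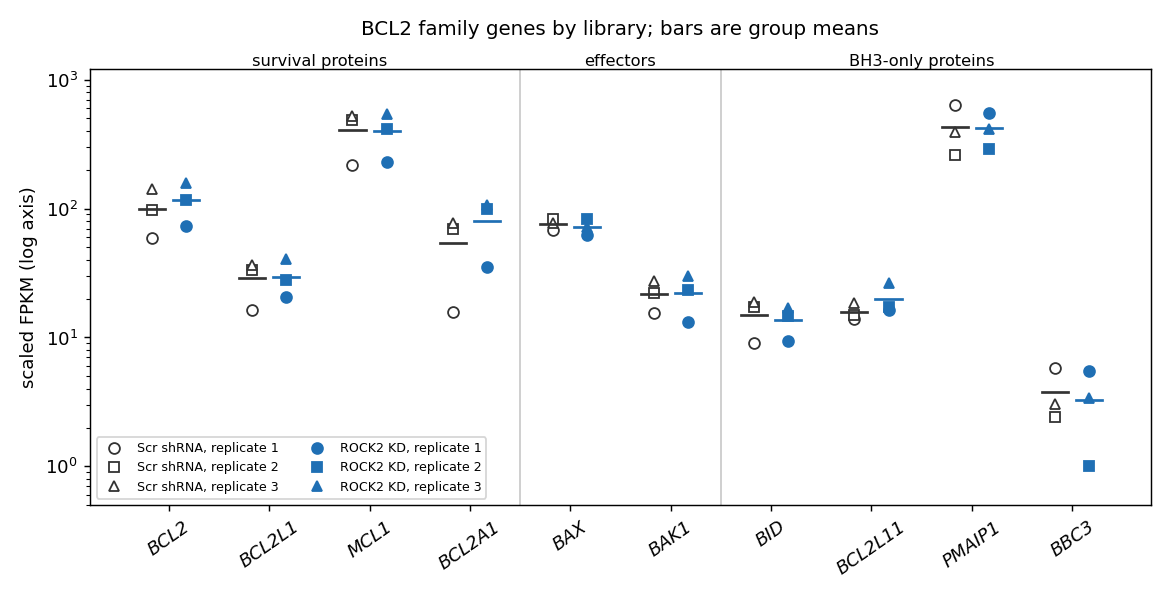
Scaled FPKM of the 10 members in each library, on a log axis, with open symbols for Scr shRNA, filled symbols for ROCK2 KD, a shape for each replicate number and a horizontal bar for each group mean. Circles (replicate 1) are lowest for all 4 survival genes and highest for PMAIP1 and BBC3, and the symbols of the groups overlap for every member.

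BCL2A1 encodes BFL-1, a survival protein that sequesters BIM and other BH3-only proteins and is short-lived. It lies on the minus strand of chromosome 15 at 80253234 to 80263538 (GRCh37, the build called hg19). The 250 bases before its RefSeq start are shown because BCL2A1 had the largest difference of the members. No annotated exon overlaps them. They were searched on both strands for the kB motif of NF-kB, the FOXO core GTAAACA and the cyclic AMP response element TGACGTCA, and hold none of these, which says only that these letters are not in this window. With 38.8% G and C the window lies near the 10th percentile (38%) of all 35116 RefSeq windows of this length, whose median was 58%.
BCL2A1, chr15:80263539-80263788, minus strand: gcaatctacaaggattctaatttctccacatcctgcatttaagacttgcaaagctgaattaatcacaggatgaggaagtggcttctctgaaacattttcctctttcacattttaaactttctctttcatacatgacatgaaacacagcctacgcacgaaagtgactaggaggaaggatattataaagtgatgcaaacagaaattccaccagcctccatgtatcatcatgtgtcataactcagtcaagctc

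BCL2A1 was listed at 27.7, 115 and 117 FPKM in ROCK2 KD replicates 1, 2 and 3 and at 12.4, 81.3 and 84.2 in Scr shRNA, means of 86.5 ± 51.0 and 59.3 ± 40.6 (SD, n = 3 each). Within each number the ROCK2 KD library was the higher, while the groups overlapped because both libraries of replicate 1 were low. After scaling, the ratios were 2.23, 1.42 and 1.37 in replicates 1, 2 and 3. The log2 fold change was 0.69 (SE 0.15, 95% interval 0.34 to 1.03), with an unadjusted p of 0.00224 and an adjusted p of 0.791 by limma. That was place 27 of 10526 by p and place 38 by size among the higher genes. Adjusted p values over the alternatives described under the processing ranged from 0.0385 to 1.0, and the log2 fold change from 0.47 without replicate 1 to 0.81 without replicate 3.

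BCL2, the founding survival gene, lies on the minus strand of chromosome 18 at 60790579 to 60987361. It was listed at 57.6, 136 and 174 FPKM in ROCK2 KD and at 46.3, 113 and 154 in Scr shRNA. The replicate numbers stood in the same order in both groups, with overlapping ranges, and the ROCK2 KD library was above its partner in 3 of 3 pairs, by log2 differences of 0.31, 0.27 and 0.15. The fitted log2 fold change was 0.24 (SE 0.09, 95% interval 0.02 to 0.46), with an unadjusted p of 0.0338 and an adjusted p of 0.886 by limma. Without replicate 1 or replicate 2 the log2 fold change was 0.21 and 0.23, with unadjusted p values of 0.134 and 0.122. With all libraries but no mean-variance trend in the limma fit, the unadjusted p was 0.0519.

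MCL1 encodes a survival protein with rapid turnover that many B cells and plasma cells need, and BCL2L1 encodes BCL-XL. MCL1 (chromosome 1, 150533371 to 150552214, minus strand) was listed at 180, 480 and 602 FPKM in ROCK2 KD and at 171, 560 and 573 in Scr shRNA. It was a little higher in ROCK2 KD in replicates 1 and 3 and lower in replicate 2, and its log2 fold change was -0.03 (95% interval -0.26 to 0.20, adjusted p = 0.995). BCL2L1 (chromosome 20, 30252255 to 30311792, minus strand) had 16.1, 32.0 and 44.7 FPKM in ROCK2 KD and 12.8, 39.1 and 39.8 in Scr shRNA. The pairs split as for MCL1, and the log2 fold change was 0.06 (95% interval -0.25 to 0.38, adjusted p = 0.992). Exons of MCL1 overlap ADAMTSL4 and ADAMTSL4-AS1, and the libraries do not mark strand, but ADAMTSL4 was listed at only 0.0862 to 0.650 FPKM. Exons of BCL2L1 overlap ABALON on the opposite strand, which is not listed under this name, so reads of the pair cannot be told apart. Older names of overlapping genes were not searched.

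The 4 survival genes were also compared as shares of their summed FPKM, which no scaling of a library can alter. MCL1 made up 64.0%, 62.9% and 64.2% of that sum in ROCK2 KD replicates 1, 2 and 3 and 70.5%, 70.6% and 67.4% in Scr shRNA. Every ROCK2 KD library was below every control here, with means of 63.7% ± 0.678 and 69.5% ± 1.81 (SD, n = 3 each). BCL2A1 made up 9.85%, 15.0% and 12.5% against 5.12%, 10.2% and 9.89%, higher in 3 of 3 pairs with overlapping groups. BCL2 took 20.5%, 17.8% and 18.5% against 19.1%, 14.2% and 18.0%, and BCL2L1 between 4.20% and 5.73%. The shares add to the whole, so a larger share of one gene lowers the others by arithmetic. In an exact two-sided permutation test within the same-numbered pairs, MCL1, BCL2A1 and BCL2 each had p = 0.25, the smallest p that 3 pairs allow, and BCL2L1 had p = 1. Permuted without regard to the pairs, the exact p was 0.1 for MCL1, the smallest that 3 libraries against 3 allow, 0.3 for BCL2A1, 0.5 for BCL2 and 0.9 for BCL2L1. Neither design can reach 0.05. These 4 shares were tested after the values were seen, and adjusted over them the exact p for MCL1 was 0.333 within pairs and 0.4 without.

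**Figure D2:**
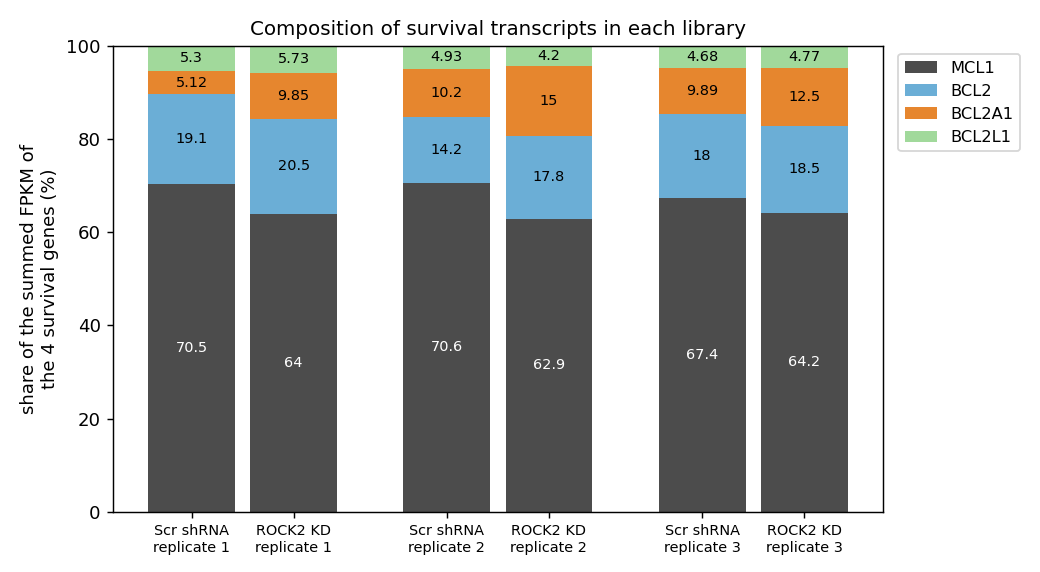
Share of the summed FPKM of MCL1, BCL2, BCL2A1 and BCL2L1 held by each gene (vertical axis, percent), with 1 stacked bar per library and same-numbered libraries side by side. The MCL1 segment is 62.9% to 64.2% in ROCK2 KD and 67.4% to 70.6% in Scr shRNA, and the BCL2A1 segment is the larger in ROCK2 KD in every pair.

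The effectors BAX and BAK1, whose proteins oligomerise in the outer membrane, had no consistent sign over the pairs. BAX (chromosome 19, 49458072 to 49465055, plus strand) was listed at 48.8, 96.4 and 78.9 FPKM in ROCK2 KD and at 53.6, 95.8 and 84.0 in Scr shRNA. Partners lay close in each pair, and the log2 fold change was -0.08 (95% interval -0.30 to 0.15, adjusted p = 0.979). BAK1 (chromosome 6, 33540324 to 33548070, minus strand) was listed at 10.3, 27.2 and 33.3 FPKM in ROCK2 KD and at 12.2, 25.9 and 29.9 in Scr shRNA. Its pairs went both ways, and its fitted log2 fold change of -0.00475 (95% interval -0.27 to 0.26, adjusted p = 0.998) had a sign that depended on the scaling. Exons of BAK1 overlap GGNBP1, which was listed at 0.164 FPKM or less. BAX exceeded BAK1 by 2.37 to 4.72 times over the 6 libraries.

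BCL2L11 encodes BIM, a BH3-only protein that binds all survival proteins and helps to delete B cells after strong antigen receptor signals. It lies on the plus strand of chromosome 2 at 111876955 to 111926021. Its promoter window is shown because it alone among the 9 members with a RefSeq window held one of the motifs searched. The window falls inside the annotated span of the gene but in no annotated exon, and G and C make up 76.8% of it. The FOXO core, in capitals, begins 223 bases before the start, at -223.
BCL2L11, chr2:111878241-111878490, plus strand: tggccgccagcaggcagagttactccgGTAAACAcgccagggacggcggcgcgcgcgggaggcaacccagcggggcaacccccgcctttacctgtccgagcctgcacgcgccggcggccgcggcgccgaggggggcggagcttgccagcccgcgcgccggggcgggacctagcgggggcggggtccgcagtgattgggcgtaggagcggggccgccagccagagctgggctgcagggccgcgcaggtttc

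This core was found in 2.98% of all 35116 windows, the kB motif in 5.21% and the cyclic AMP response element in 1.65%, and the kB motif and the response element were in 0 of the 9 members' windows. No motif contains another. MCL1 has no window in the table. A match is a string of letters and not a measured site.

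BCL2L11 was listed at 12.8, 19.9 and 29.4 FPKM in ROCK2 KD and at 10.9, 17.2 and 20.0 in Scr shRNA, means of 20.7 ± 8.32 and 16.0 ± 4.70 (SD, n = 3 each). ROCK2 KD was higher in 3 of 3 pairs, most in replicate 3, by log2 differences of 0.22, 0.20 and 0.51. The fitted log2 fold change was 0.31 (SE 0.11, 95% interval 0.05 to 0.57), with an unadjusted p of 0.0277 and an adjusted p of 0.879 by limma, and without replicate 3 the log2 fold change was 0.21 with an unadjusted p of 0.169. Exons of BCL2L11 overlap the noncoding gene MIR4435-2HG on the opposite strand, which is not listed under this name, so their reads cannot be told apart. BCL2 and BCL2L11, a survival protein and its ligand, were thus both higher in ROCK2 KD in each pair. The ratio of BCL2 to BCL2L11 FPKM was 4.51, 6.83 and 5.91 in ROCK2 KD and 4.27, 6.56 and 7.66 in Scr shRNA, higher in 2 of 3 pairs.

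PMAIP1 encodes NOXA, which binds MCL1 and promotes its breakdown. It lies on the plus strand of chromosome 18 at 57567228 to 57571537 and was listed at 437, 333 and 461 FPKM in ROCK2 KD and at 502, 300.0 and 428 in Scr shRNA. Replicate 1 was lower in ROCK2 KD and the other pairs higher, with group means of 410.1 ± 67.8 and 409.9 ± 102 (SD, n = 3 each). The log2 fold change was 0.01 (95% interval -0.23 to 0.26, adjusted p = 0.996).

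BID, which caspase-8 cleaves to carry the signal of death receptors to mitochondria, and BBC3, which encodes the p53 target PUMA, were the remaining BH3-only genes. BID (chromosome 22, 18216904 to 18257536, minus strand) was listed at 7.38, 17.0 and 18.8 FPKM in ROCK2 KD and at 7.14, 19.9 and 20.4 in Scr shRNA, with a log2 fold change of -0.10 (95% interval -0.35 to 0.16, adjusted p = 0.979). BBC3 (chromosome 19, 47724079 to 47736023, minus strand) was listed at 4.28, 1.17 and 3.74 FPKM in ROCK2 KD and at 4.57, 2.79 and 3.31 in Scr shRNA. The low value of ROCK2 KD replicate 2 set its log2 fold change of -0.24 (95% interval -0.66 to 0.18, adjusted p = 0.963), which was 0.02 without that number and -0.37 with a pseudocount of 0.1. BBC3 had the widest interval of the members and is the least precisely measured. Its exons overlap MIR3191, which is not listed under this name.

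**Figure D3:**
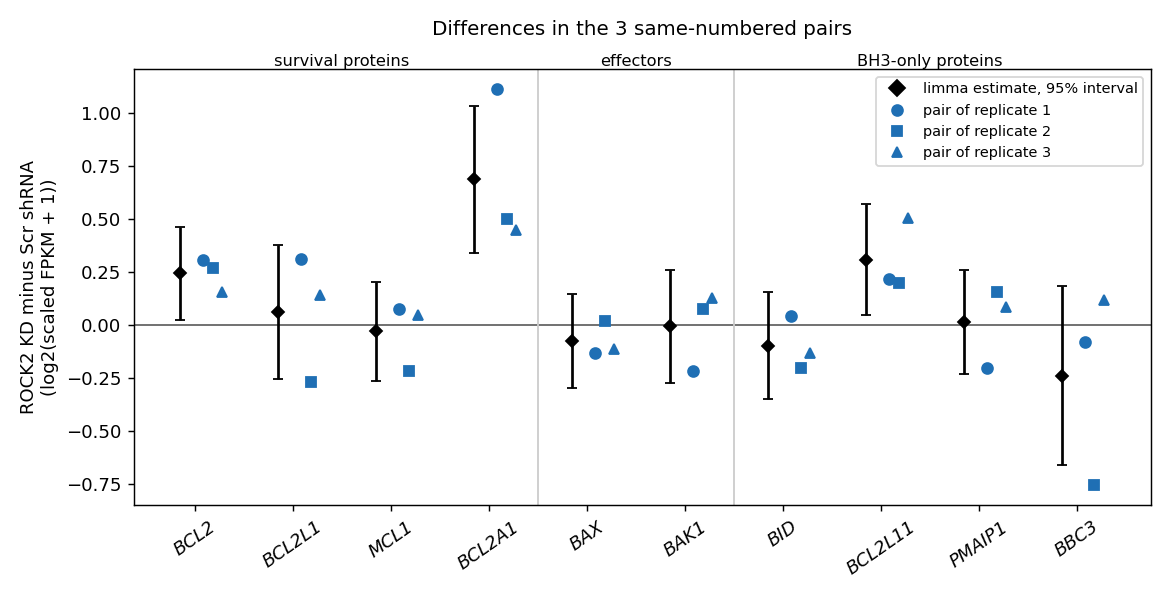
Difference between ROCK2 KD and Scr shRNA of each member on the log2(scaled FPKM + 1) scale, with the limma estimate and its 95% interval in black and the 3 same-numbered pairs in blue. The intervals of BCL2A1, BCL2 and BCL2L11 lie above 0 before any adjustment for the number of genes tested, and those of the other 7 members span 0.

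The members' counts are given here beside those over all genes tested. With limma, an adjusted p under 0.05 was reached by 0 of 10526 genes (0%), so by 0 members, and BCL2A1 shared the lowest adjusted p of all genes, 0.791. At an unadjusted p under 0.05, 331 genes were higher in ROCK2 KD (3.14%), 3 members among them, and 242 were lower (2.3%), with 0 members. Higher in all 3 pairs were 1378 genes (13.1%) and the same 3 members, and lower in all 3 were 1264 genes (12%) and 0 members. In 177 genes (1.68%) the groups did not overlap after scaling, and 0 members were among these. The median log2 fold change was 0.00 over the members and -0.00 over all genes tested, with 5 members higher and 5 lower. By role, an unadjusted p under 0.05 was reached by 2 of 4 survival genes, 0 of 2 effectors and 1 of 4 BH3-only genes, all in the direction of a higher level in ROCK2 KD. When the replicate effect was removed beforehand with ComBat, in the order of steps the study names, and limma was then run without a block, 164 genes were called higher (1.56%), among them BCL2A1 with an adjusted p of 0.0385, BCL2 with 0.0453 and BCL2L11 with 0.0465. These were the lowest adjusted p values of the 3 genes over the alternatives, and the highest, without the block, was 1.0 for each. That fit counts the replicate means it has already removed as if they were still free.

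More members differed between replicate numbers than between groups. By limma, in a test added after the values were seen, 6050 of the genes (57.5%) differed between the 3 numbers at an adjusted p under 0.05, and 9 of the 10 members did, all but BAX (adjusted p = 0.0852). The direction was not shared. The mean scaled FPKM of both libraries of a number was 25.5, 84.6 and 91.6 in replicates 1, 2 and 3 for BCL2A1, 223, 449 and 536 for MCL1 and 66.1, 107 and 149 for BCL2. The pro-death gene PMAIP1 was instead highest in replicate 1, at 597 against 273 and 405, and BBC3 likewise, at 5.63 against 1.71 and 3.21. The 4 survival genes therefore made up 35.1%, 60.6% and 60.0% of the summed FPKM of the 10 members in ROCK2 KD replicates 1, 2 and 3 and 29.1%, 63.2% and 59.2% in Scr shRNA. PMAIP1 alone made up 54.5% and 60.3% in the ROCK2 KD and Scr shRNA libraries of replicate 1 and 23.9% to 29.8% in the other 4 libraries. The effectors stayed between 7.18% and 9.83%. Both libraries of replicate 1 also had the lowest B cell marker sums and the lowest FPKM totals, and the part of these in the members' levels was not tested.

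The genes around the members were taken from 6 lists of apoptosis genes, and 0 genes of any list passed at an adjusted p under 0.05 by limma. Of 17 other BCL2 relatives, 11 were tested, 5 with a higher and 6 with a lower level in ROCK2 KD and a median of -0.00. An unadjusted p under 0.05 was reached by BMF, a BH3-only gene, at a log2 fold change of 0.35, and on the lower side by BCL2L12 at -0.31 and BNIP3, a mitophagy receptor, at -0.38. Over all genes tested, 3.14% were higher and 2.3% lower at that level. BNIP3 was named after its value was seen, being lower in 2 of 3 pairs. BMF was listed at 25.2, 34.9 and 35.7 FPKM in ROCK2 KD and at 20.2, 32.8 and 22.1 in Scr shRNA, higher in each pair. After scaling its groups did not overlap, at 32.1, 30.2 and 32.3 in ROCK2 KD and 25.6, 28.2 and 20.3 in Scr shRNA, while in deposited FPKM they did. The relatives BCL2L2, BCL2L10, BOK, HRK, BCL2L14 and BCL2L15 were below the filter.

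Downstream of the members, 21 genes of the apoptosome, the caspases and their inhibitors were all tested, 11 higher and 10 lower, with a median of 0.01. DFFA, the inhibitor of the apoptotic nuclease, reached an unadjusted p of 0.0141 at a log2 fold change of -0.35. The nuclease subunit DFFB had -0.16 and the large inhibitor BIRC6 0.17, each with the same sign in all 3 pairs. Of 15 death receptor genes, 13 were tested, 8 higher and 5 lower with a median of 0.04, and 0 reached an unadjusted p under 0.05. The adaptor FADD had a log2 fold change of 0.06 and the decoy receptor TNFRSF10D 0.08. Of 8 genes that govern the turnover of MCL1 and BIM, 7 were tested, 6 higher and 1 lower with a median of 0.04, and the MCL1 deubiquitinase USP9X had 0.11.

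Upstream, 18 of 21 transcription factors known to act on the members were tested, 8 higher and 10 lower with a median of -0.05. REL, an NF-kB subunit, was listed at 6.27, 15.3 and 14.4 FPKM in ROCK2 KD and at 4.15, 11.6 and 13.2 in Scr shRNA. It was higher in ROCK2 KD in 3 of 3 pairs, by less in replicate 3, with a log2 fold change of 0.33 (SE 0.12, unadjusted p = 0.0303, adjusted p = 0.883 by limma). The other NF-kB subunits had log2 fold changes of 0.19 (NFKB1), -0.09 (RELA), -0.09 (RELB) and -0.02 (NFKB2), with RELB and NFKB2 named after their values were seen. IRF4 had 0.19. MYC had -0.10 (SE 0.18), with differences of 0.35, -0.07 and -0.59 in the pairs of replicates 1, 2 and 3. It was low, at 0.735 to 6.40 FPKM over the libraries. ATF4, a stress factor that acts on PMAIP1, had -0.25 with an unadjusted p of 0.0393, and E2F1 had -0.28. Of 18 p53 targets outside the members, 17 were tested, 8 higher and 9 lower with a median of -0.01. ZMAT3 (0.37), PLK3 (0.35) and SESN1 (0.33) were higher in all pairs with unadjusted p values of 0.0185, 0.0286 and 0.0238 by limma, and SESN1 was named after its value was seen. Of all genes tested, 3.14% were higher at an unadjusted p under 0.05 and 13.1% were higher in all 3 pairs. The p53 targets among the members, BBC3, PMAIP1 and BAX, had log2 fold changes of -0.24, 0.01 and -0.08.

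**Figure D4:**
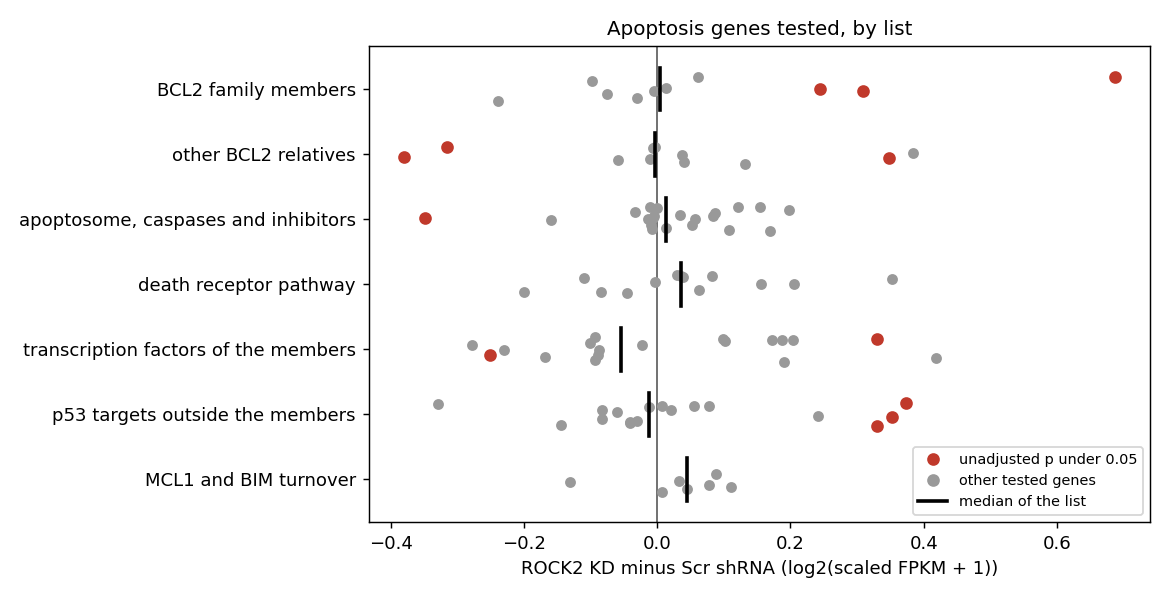
Log2 fold change (horizontal axis, log2(scaled FPKM + 1)) of each tested gene in the 10 members and in the 6 lists, with red points for an unadjusted p under 0.05 and a black line at each list's median. The medians lie between -0.05 and 0.04, and the point farthest to the right is BCL2A1 at 0.69.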

How the data were processed

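Total RNA of the stable U2932 lines was made into 6 Nextera libraries and sequenced as paired reads, which the authors mapped with STAR (hg19) and quantified with Cufflinks. The deposited values are FPKM, relative to transcript length and to all mapped fragments, with no read counts, so the authors' own test on batch-corrected counts could not be repeated. Relative depth was read from the most common FPKM ratio to Scr shRNA replicate 3 among genes of very low FPKM in both libraries.

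Libraries were scaled with a trimmed mean of log ratios (trim 0.3 of ratios, 0.05 of levels), and genes reaching 1 FPKM in 3 or more libraries went into limma 3.58.1 in R 4.3.3 as log2(scaled FPKM + 1), pseudocount 1, with the replicate number as a block, a mean-variance trend, two-sided tests and Benjamini-Hochberg adjustment at 0.05. The labels number both groups 1 to 3. Across genes, deviations from the group mean had correlations of 0.855, 0.785 and 0.742 for libraries of the same number, and those of different numbers had -0.649 to 0.0557, so the numbers were taken to pair the libraries. The fits were tested on simulated data. Shares were tested by exact permutation in scipy 1.17.1.

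The members and gene lists were chosen with earlier results of these data known. Genes named outside the members were ROCK2, MYC, IRF4, RELA and, per list, up to 2 genes with the largest positive and up to 2 with the largest negative log2 fold change among those with the same sign in all 3 pairs. Others are said to be chosen after their values were seen. Some genes that this rule names are not reported here. Gene positions are from GENCODE 44 lifted to GRCh37. Promoter windows came from RefSeq (built on GRCh38) and were located in GRCh37 by exact match. Alternatives covered the block, ComBat (written out in its parametric form), the pseudocount (0.1), the filter, the scaling, the trend and leaving out each replicate number.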

Additional observations from a re-analysis of the deposited data

How the results depend on the processing

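With ComBat first and limma with no block term, 296 genes had an adjusted p under 0.05 instead of 0, with 3 members (BCL2A1 at a log2 fold change of 0.52, BCL2 at 0.19 and BCL2L11 at 0.23) and 4 genes of the lists. This fit counts the removed replicate means as residual degrees of freedom by its construction. Without the replicate block, 0 genes passed and 26 had an unadjusted p under 0.05, against 573 with the block, and the adjusted p of BCL2A1 was 1.0. This pairing by replicate number changed no call. With each replicate number left out, both libraries together, between 0 and 4 genes passed by limma, namely 3 without replicate 1 and 4 without replicate 3, none of them a member or a listed gene. BCL2A1 ranged from 0.47 to 0.81 there, with unadjusted p values of 0.00715, 0.00192 and 0.00304 without replicates 1, 2 and 3. Signs turned only for members near 0 or with mixed pairs. BAK1 was 0.0017 after ComBat, 0.0015 without scaling, 9.07e-05 with median log ratio scaling and lay between -0.0712 and 0.10 with a replicate number left out. On leaving out a number, BCL2L1 lay between -0.0640 and 0.23, MCL1 between -0.0830 and 0.0625, PMAIP1 between -0.0582 and 0.12 (-0.0218 without replicate 3) and BBC3 between -0.42 and 0.0191. BID lay between -0.17 without replicate 1 and -0.0443 without replicate 2, and BAX between -0.12 without replicate 2 and -0.0473 without replicate 1. With a pseudocount of 0.1, either other filter, either other scaling or no trend, 0 genes passed by limma (541 to 791 at an unadjusted p under 0.05). Without the trend, 2 members had an unadjusted p under 0.05 instead of 3, as BCL2 had 0.0519 by limma. The deposited values carry no read numbers, so no counting interval is given.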
